A study of Mus musculus with 14 samples.

Results

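Osteo-chondrogenic progenitors (OCPs) and JAG1+ limb bud mesenchymal progenitors (LMPs) sorted from mouse forelimb buds at E10.5 were compared over all expressed genes and in both directions. The comparison is between 6 of the 14 RNA-seq libraries of the series, 3 from each population. The filter and the estimate of spread drew on all 14, and 15125 of 24454 genes had enough counts to be tested. OCPs were sorted as S9+Pαhi cells, which carry the EGFP that reports *Sox9* and high surface levels of PDGFRα. JAG1+ LMPs were sorted as S9-JAG1+ cells, which lack EGFP and SCA-1 and carry the Notch ligand JAG1 on their surface. The remaining libraries hold the LMPs with high PDGFRα (S9-Pαhi) and the SCA-1+ cells of the same stage, and *Col2a1*+ chondroblasts at E11.5. All embryos carried the Sox9 IRES-EGFP allele in a mixed Swiss Albino background, and each library was made from the pooled cells of many forelimb buds of both sexes. Cells positive for 7AAD, CD31, Ter119, CD45, EpCam, Gr1 or CD11b were removed in every sort. EGFP outlasts the transcript that it reports, and the cells of a pool differ in somite stage, so each library is an average over a stretch of development. The question of the comparison is how the progenitors that have entered the skeletal lineage differ from distal-posterior progenitors that have not.

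In the early limb bud, SOX9 marks the cells of the core that condense and form the cartilage models of the bones. The undifferentiated mesenchyme beneath the apical ectodermal ridge is kept growing by FGFs from the ridge and by SHH from the posterior margin, with the BMP antagonist GREM1 linking the signals. Proximal identity is tied to MEIS factors and retinoic acid, and the hand plate to the Hox genes at the 5′ end of the HoxA and HoxD clusters.

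The genes used for sorting followed the labels. *Sox9*, the master regulator of chondrogenesis, stood at 434, 432 and 445 CPM (counts for every 1000000 counts of TMM-adjusted library size) in OCP replicates 1 to 3 and at 32.0, 36.8 and 35.6 CPM in JAG1+ replicates 1 to 3. *Pdgfra* stood at 667, 746 and 743 CPM in OCPs and 246, 246 and 248 CPM in JAG1+ LMPs. *Jag1* stood at 16.9, 20.9 and 21.3 CPM in OCPs against 228, 297 and 364 CPM in JAG1+ LMPs. No value of the populations overlapped for these genes, which were sorted on and are not results. Of the other defining markers, *Cdon*, a SHH coreceptor of the limb core, was higher in all OCP libraries and *Shh* in all JAG1+ libraries, as given below. Aggrecan (*Acan*) and matrilin 1 (*Matn1*), genes of mature cartilage, were close to the detection limit in OCPs. *Acan* stood at 0.203, 0.143 and 0.0362 CPM and *Matn1* at 0.0406, 0.190 and 0.145 CPM, where 3 counts are 0.109 to 0.143 CPM. Other cartilage matrix genes, among them *Col2a1*, *Matn4* and *Prelp*, were above the detection limit in OCPs, as given below.

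The 6 libraries held between 20316583 and 27404749 counts on genes. All replicates differed by more than sampling noise, and the distance between libraries (root mean square of log2 differences) was 0.413 to 0.679 within a population and 0.875 to 1.08 between them. Some libraries stood apart in marker genes of other tissues. The part of cells from those tissues was not tested. JAG1+ replicate 3 had a summed level of 47.6 CPM over 9 markers of tail bud mesoderm, against 11.0 and 16.4 CPM in replicates 1 and 2 and 1.66 to 4.23 CPM in OCPs. JAG1+ replicate 1 had 23.0 CPM over 11 markers of flank, coelomic and heart mesoderm, against 4.23 and 5.07 CPM in the other two and 5.64 to 6.37 CPM in OCPs. Replicate 1 of both populations was highest in the hindlimb gene *Pitx1* (29.4, 4.14 and 0.0723 CPM in OCPs and 23.6, 2.72 and 3.77 CPM in JAG1+ LMPs). OCP replicate 2 was highest in immediate-early and stress genes (a summed 3515 CPM over 25 genes, with 2249 and 2854 CPM in replicates 1 and 3 and 2131 to 2509 CPM in JAG1+ LMPs) and in *Xist* (1475 CPM, with 365 and 327 CPM in the other OCP libraries). Nothing in the sources used here says whether the replicate pools came from separate litters or days. The p-values therefore measure only the spread between libraries of the same population, pooled over all 14 libraries of the series. In bulk libraries, fewer cells with a transcript and less transcript per cell cannot be told apart.

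Of the 15125 genes, 1366 (9.03%) were called higher in OCPs and 524 (3.46%) higher in JAG1+ LMPs, 1890 (12.5%) in all. Calls needed a Benjamini-Hochberg adjusted p no larger than 0.1 in the quasi-likelihood F test of edgeR, together with a log2 fold change of 1.2 or more in size, which is 2.3-fold. OCPs thus took 72.3% of the called genes. At the same p but any fold change the directions were closer to balance, with 3901 genes (25.8%) higher in OCPs and 3310 (21.9%) in JAG1+ LMPs, 7211 (47.7%) in all. In 3601 genes (23.8%) every OCP library lay above every JAG1+ library, and in 3247 genes (21.5%) every JAG1+ library lay above. Differences of at least 4-fold were called for 685 genes higher in OCPs and 252 higher in JAG1+ LMPs, and of at least 16-fold for 139 and 45. Of the called genes, 227 higher in OCPs had no more than 3 counts in any JAG1+ library and 45 higher in JAG1+ LMPs no more than 3 in any OCP library. For these the direction is measured but not the fold. The plot of fold change against level shows called genes of both directions over a wide range of levels.

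**Figure D1:**
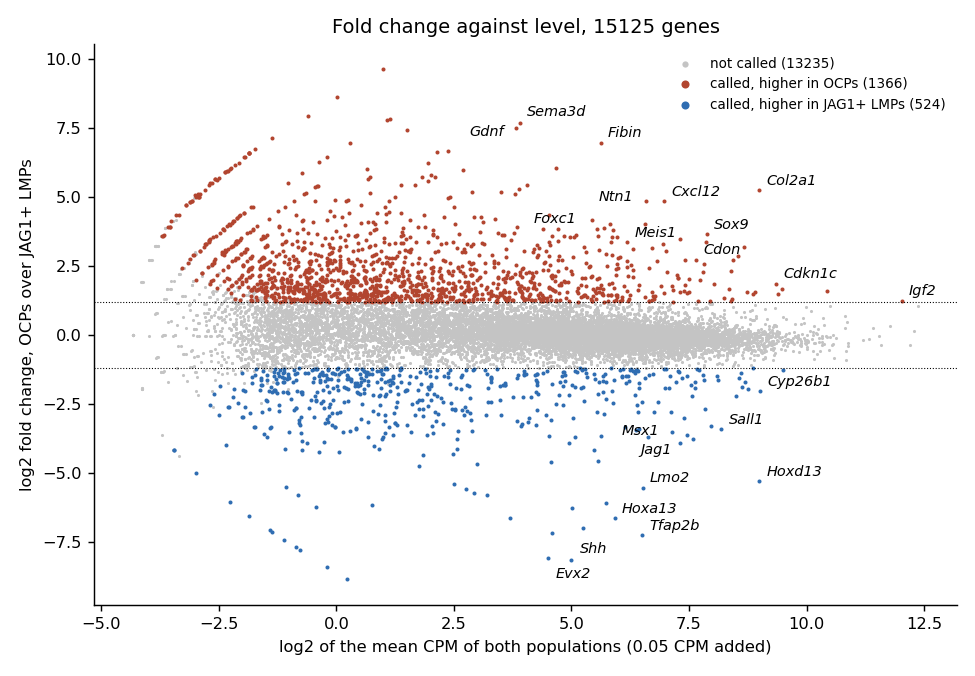
Each point is 1 of 15125 genes, with the log2 of its mean CPM over both populations (0.05 CPM added) on the x axis and its log2 fold change (OCPs over JAG1+ LMPs) on the y axis. The 1366 genes called higher in OCPs are red, the 524 called higher in JAG1+ LMPs blue, and dotted lines mark a log2 fold change of 1.2; *Hoxd13*, *Tfap2b* and *Shh* lie far below and *Col2a1*, *Fibin* and *Sema3d* far above these lines.

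The 15 largest differences in each direction were taken among called genes with at least 5 CPM in the higher population and no overlap between the populations. On the side of JAG1+ LMPs, *Shh*, the ligand of the zone of polarizing activity, led with 0.203, 0.238 and 0.217 CPM in OCPs and 54.2, 62.4 and 74.3 CPM in JAG1+ LMPs, a log2 fold change (log2 FC) of -8.15 ± 0.28 (SE) at an adjusted p of 4.00e-10 (edgeR). The gene lies at chr5:28456840-28467101 (mm10) on the minus strand. Its exons overlap antisense transcripts over 28.3% of their length, and use of strand in the counting is not stated. *Evx2*, *Tfap2b*, *Evx1os*, *Evx1*, *Hoxa13* and *Hottip* followed with log2 FC between -8.07 and -6.62. *Gja3*, a connexin, was at 1.176, 0.666 and 0.615 CPM in OCPs and 56.1, 62.8 and 71.7 CPM in JAG1+ LMPs. *Tfap2c* (-6.10 ± 0.28), the ectodysplasin receptor *Edar* (-5.78 ± 0.44), the sodium channel *Scn11a* (-5.72 ± 0.50), brachyury *T* (-5.56 ± 0.64), the LIM-only factor *Lmo2* (-5.53 ± 0.20), the synaptic vesicle gene *Sv2b* (-5.38 ± 0.34) and *Hoxd13* completed the 15. *Scn11a* was highest of the OCP libraries in replicate 2, *Edar* in replicate 1, and *T* highest of the JAG1+ libraries in replicate 3, and without these the log2 FC was -6.97, -6.45 and -4.82. *Lmo2* stood at 4.38, 3.42 and 3.76 CPM in OCPs and 147, 189.8 and 201 CPM in JAG1+ LMPs, so it was detected in both populations.

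Of the 15 genes on the side of OCPs, the semaphorin *Sema3d* stood at 16.8, 37.0 and 34.8 CPM in OCPs and 0.171, 0.252 and 0 CPM in JAG1+ LMPs (log2 FC 7.69 ± 0.51, adjusted p 6.31e-08 by edgeR, with a log2 FC of 7.08 without JAG1+ replicate 3 and 8.38 without JAG1+ replicate 2). The neurotrophic ligand *Gdnf* stood at 28.1, 27.6 and 28.4 CPM in OCPs against 0.128, 0.252 and 0.0793 CPM in JAG1+ LMPs. The secreted factor *Fibin* stood at 80.0, 92.0 and 122 CPM in OCPs against 0.685, 1.17 and 0.476 CPM in JAG1+ LMPs. The JAG1+ libraries were at the level of a few counts for *Sema3d* and *Gdnf* and somewhat above it for *Fibin*. *Mgat4c* had 393 counts over the 3 OCP libraries and 2 over the 3 JAG1+ libraries, both in replicate 2, a ratio of 194 (95% interval from counting error 53.4 to 1610). *Dipk1c* and *Emx2os* had no more than 3 counts in any JAG1+ library, so that their direction is measured but not their fold. *Dmrt2*, *Emx2*, *Shisa7*, *Calb2*, *Zmat4*, *Cavin2*, *Myh14*, the AMPA receptor subunit *Gria2* and the BMP-binding protein *Bmper* had log2 FC between 5.43 and 6.62. Single libraries moved some of these: without JAG1+ replicate 1 the log2 FC was 6.58 for *Zmat4* and 6.43 for *Myh14*, and *Cavin2* had no count left in JAG1+ LMPs. Without JAG1+ replicate 3 it was 4.96 for *Myh14* and 5.11 for *Cavin2*, without JAG1+ replicate 2 7.53 for *Dmrt2*, and without OCP replicate 2 4.73 for *Gria2*. *Emx2*, a homeobox factor of the proximal limb bud and shoulder girdle, was even across replicates, with 48.8, 51.1 and 50.6 CPM in OCPs and 0.942, 0.922 and 0.436 CPM in JAG1+ LMPs.

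Of the called genes outside the gene lists described below, those with the largest absolute difference in level were mostly abundant transcripts with smaller folds. In OCPs they were *Peg10*, an imprinted retrotransposon-derived gene (2348, 1858 and 2056 CPM in OCPs and 883, 598 and 613 CPM in JAG1+ LMPs), *Pkdcc*, a secreted kinase of bone growth, *Zfhx4*, *Amot*, *Ptn*, *Synpo*, *Foxp4*, *5930403L14Rik*, *Nrep* and *Casd1*. *Foxp4* (2.58 ± 0.12) and *Synpo* (3.38 ± 0.17) had the smallest relative errors among these. *Pkdcc* varied between JAG1+ libraries, at 146, 82.9 and 41.5 CPM, against 729, 578 and 644 CPM in OCPs. In JAG1+ LMPs the 10 genes included non-muscle myosin *Myh9* (272, 309.6 and 261 CPM in OCPs and 578, 682 and 678 CPM in JAG1+ LMPs), the pro-apoptotic *Pmaip1* (19.8, 26.6 and 31.6 CPM in OCPs against 213, 373 and 488 CPM), *Tlnrd1*, *Msi2*, *Dock6*, *Nxn*, *Daam2*, *Lmo2* and *Sertad4*. Each of the 20 genes had non-overlapping populations. The largest folds among them were 46.3 for *Lmo2*, which is also among the largest differences above, 13.8 for *Pmaip1* and 10.4 for *Synpo*. *Nrep* (1.23 ± 0.12), *Myh9* (-1.2 ± 0.10) and *Sertad4* (-1.25 ± 0.11) lay at the fold limit and fell below it when single libraries were left out, with log2 FC as small as 1.13, -1.17 and -1.178 and adjusted p from edgeR of 4.26e-05 or less.

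Over 23 lists of limb, signalling and cell biological genes, 701 members were tested, and 231 (33.0%) were called, 148 higher in OCPs and 83 higher in JAG1+ LMPs, against 12.5% of all genes. The members were picked with earlier results of these data known, so this share describes the lists and supports nothing further. The plot of called genes in each list shows the widest medians for proximal limb factors, with all 13 calls higher in OCPs, and for 5′ Hox genes, with all 9 calls higher in JAG1+ LMPs. Ribosome biogenesis and the cell cycle had no called gene. Every count of called members below stands beside shares over all genes of 9.03% higher in OCPs and 3.46% higher in JAG1+ LMPs. Counts at the p limit and any fold stand beside 25.8% and 21.9%.

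**Figure D2:**
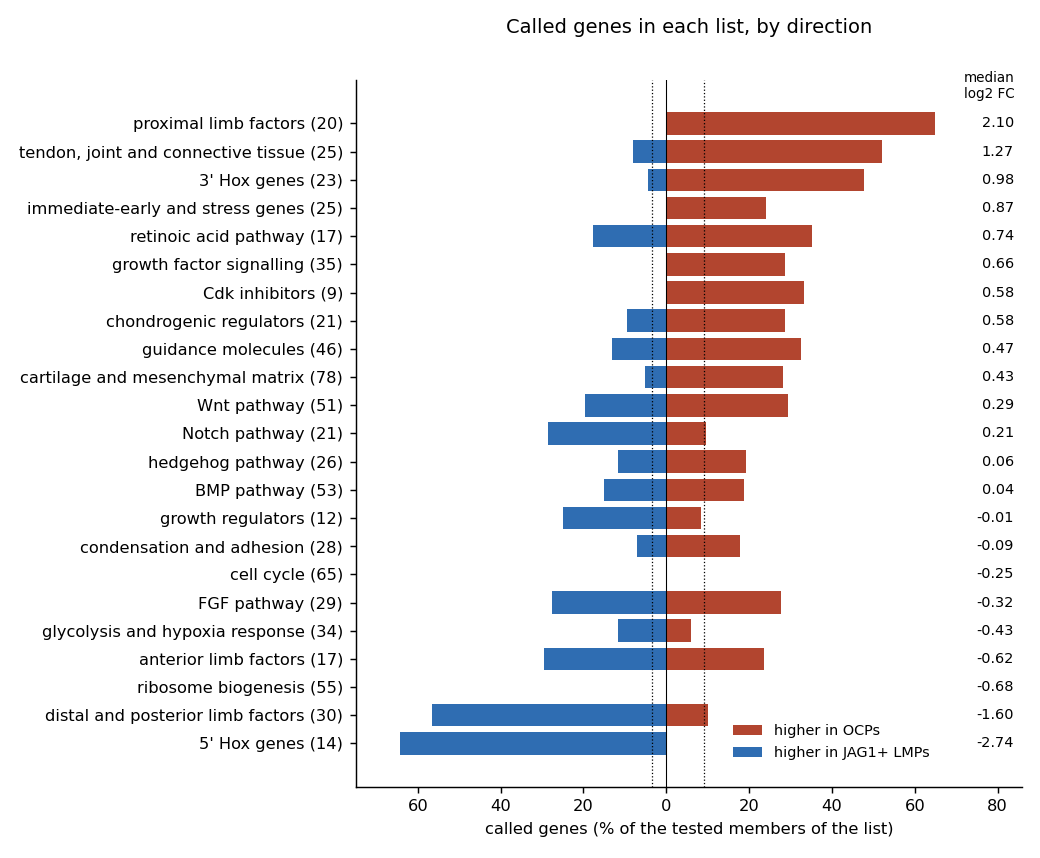
Bars give the percent of the tested members of each list (number in brackets) called higher in OCPs (red, to the right) or in JAG1+ LMPs (blue, to the left), with the median log2 FC of the list at the right edge. Dotted lines mark the shares over all tested genes, 9.03% and 3.46%; lists are ordered by their medians, from 2.10 for proximal limb factors to -2.74 for 5′ Hox genes.

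Called Hox genes at the 5′ end lay in HoxA and HoxD, and those at the 3′ end mostly in HoxB and HoxC. The opposite directions below are therefore largely between clusters and not within them. Of 14 tested genes at the 5′ end of HoxA and HoxD and their neighbours, 9 were called higher in JAG1+ LMPs and none in OCPs (median log2 FC -2.74, 0.03 over all genes). *Hoxa13*, which with *Hoxd13* specifies the hand plate, stood at 1.05, 1.05 and 1.45 CPM in OCPs and 101, 113 and 144 CPM in JAG1+ LMPs. *Hoxd13* stood at 27.4, 19.2 and 29.4 CPM in OCPs and 799.5, 965 and 1212 CPM in JAG1+ LMPs, a 39.1-fold difference (adjusted p 1.97e-09, edgeR). In the HoxD cluster the difference grew from *Hoxd9* towards the 5′ end, with log2 FC of 0.78 ± 0.15 for *Hoxd9*, -0.90 ± 0.13 for *Hoxd10*, -1.71 ± 0.12 for *Hoxd11*, -3.62 ± 0.21 for *Hoxd12*, -5.29 ± 0.22 for *Hoxd13* and -8.07 ± 0.47 for *Evx2* next to it. In HoxA, *Hoxa9* (-0.21 ± 0.11) and *Hoxa10* (-0.74 ± 0.10) were not called, and *Hoxa11* (-2.19 ± 0.16), *Hoxa13* (-6.64 ± 0.22) and *Evx1* (-6.99 ± 0.35) were. *Hoxa11*, a gene of the forearm domain, was at 74.9, 59.6 and 68.7 CPM in OCPs, and its antisense transcript *Hoxa11os* differed in the same direction (-3.30 ± 0.18). They overlap each other, over 25% of the exons of *Hoxa11* and 31% of those of *Hoxa11os*. *Hottip*, the long noncoding RNA at the 5′ end of HoxA, had 0.325, 0.0476 and 0.362 CPM in OCPs and 16.6, 29.9 and 30.4 CPM in JAG1+ LMPs.

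**Figure D3:**
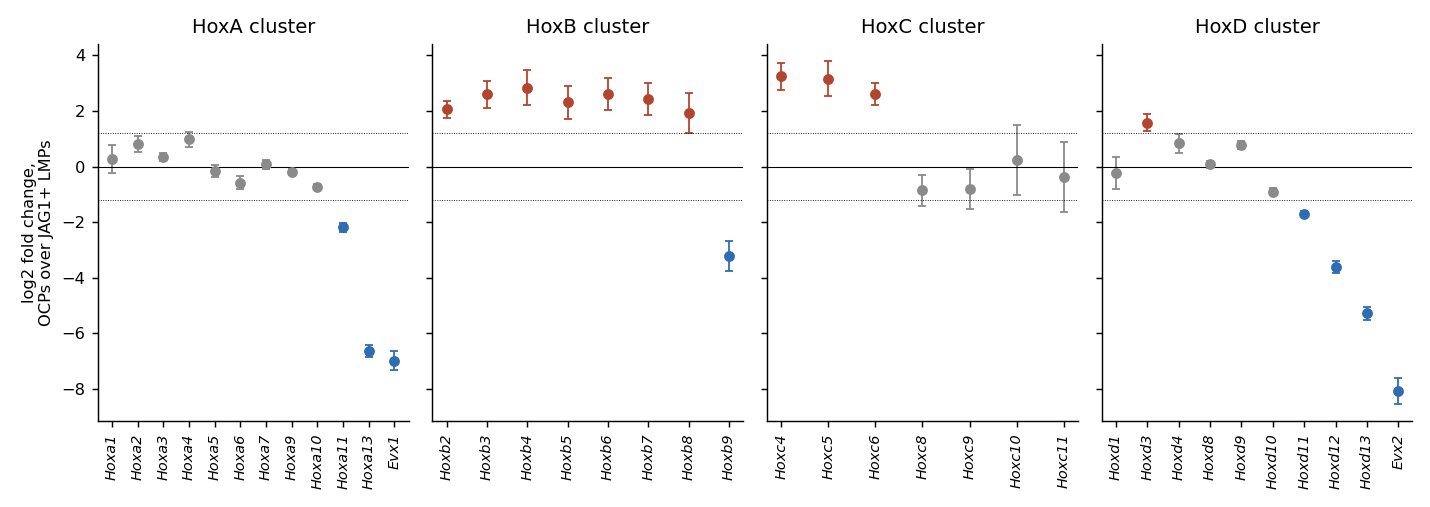
Points give the log2 FC (OCPs over JAG1+ LMPs) of each tested Hox gene and of *Evx1* and *Evx2*, in cluster order, with bars of 1 SE; red and blue mark called genes, grey those not called, and dotted lines a log2 FC of 1.2. *Hoxb2* to *Hoxb8* and *Hoxc4* to *Hoxc6* lie at 1.92 to 3.25, *Hoxa11* to *Evx1* at -2.19 to -6.99 and *Hoxd11* to *Evx2* at -1.71 to -8.07.

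Among 3′ Hox genes, 11 of 23 tested were called higher in OCPs and 1 higher in JAG1+ LMPs (median log2 FC 0.98). The 11 were *Hoxb2* to *Hoxb8*, *Hoxc4*, *Hoxc5*, *Hoxc6* and *Hoxd3*. *Hoxc4* stood at 38.0, 42.3 and 46.8 CPM in OCPs and 5.61, 4.15 and 3.61 CPM in JAG1+ LMPs. *Hoxb4* stood at 19.7, 23.2 and 20.9 CPM in OCPs against 3.85, 3.19 and 1.90 CPM in JAG1+ LMPs. None of the 7 tested 3′ HoxA genes was called. *Hoxb8* and *Hoxd3* were the least firm of the 11: the adjusted p of *Hoxb8* was 0.146 without JAG1+ replicate 2 and its log2 FC 2.73 without JAG1+ replicate 1, against 1.92 with all libraries, and the log2 FC of *Hoxd3* was 1.02 without OCP replicate 2 (edgeR). *Hoxb9* went the other way, with 1.501, 1.24 and 0.0723 CPM in OCPs and 9.42, 7.25 and 8.96 CPM in JAG1+ LMPs, and its log2 FC went from -3.22 to -3.81 without OCP replicate 1. *Hoxb2* and *Hoxb3* overlap antisense transcripts over 58% and 64% of their exons.

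Of 20 proximal limb factors, 13 were called higher in OCPs and none in JAG1+ LMPs (median log2 FC 2.10). *Meis1*, the TALE homeobox factor of the upper arm, stood at 147, 130.2 and 121 CPM in OCPs and 21.8, 9.97 and 7.25 CPM in JAG1+ LMPs (adjusted p 5.25e-05, edgeR). *Meis2* stood at 248, 221 and 217 CPM in OCPs against 44.96, 24.0 and 15.2 CPM in JAG1+ LMPs. In both genes JAG1+ replicate 1 was the highest of its population, and still far below every OCP library, and without it the log2 FC of *Meis1* went from 3.35 to 3.95. Their partner *Pbx3* had log2 FC 1.87 ± 0.12. The Iroquois factors *Irx3* (234, 236 and 203 CPM in OCPs, 37.0, 21.8 and 9.51 CPM in JAG1+ LMPs) and *Irx5* (3.59 ± 0.60), needed for proximal and anterior skeletal elements, varied in the same way between JAG1+ libraries. *Shox2*, which controls growth of the upper arm, stood at 675, 765 and 757 CPM in OCPs and 93.9, 78.8 and 65.9 CPM in JAG1+ LMPs. *Tbx18* (3.47 ± 0.23), *Osr1* (3.903 ± 0.22) and *Osr2* (3.54 ± 0.21) completed the larger differences. *Tbx15* (1.09 ± 0.17) and *Hoxd9* were higher below the fold limit, and *Pknox2*, a further TALE factor, had log2 FC -0.94 ± 0.20.

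Of 30 distal and posterior factors, 17 were called higher in JAG1+ LMPs and 3 in OCPs (median log2 FC -1.60). *Sall1*, a zinc finger factor of the distal mesenchyme, stood at 45.4, 48.1 and 57.8 CPM in OCPs and 518, 510.0 and 572 CPM in JAG1+ LMPs. Its relative *Sall3* stood at 58.8, 65.3 and 61.7 CPM in OCPs against 379, 383 and 437 CPM in JAG1+ LMPs. *Msx1*, a homeobox factor of undifferentiated mesenchyme, stood at 30.2, 19.6 and 18.9 CPM in OCPs and 226, 266 and 287 CPM in JAG1+ LMPs. The AP-2 genes *Tfap2a*, *Tfap2b* and *Tfap2c* were all called, and *Tfap2b* went from 0.852, 1.52 and 1.19 CPM in OCPs to 129.8, 183 and 231 CPM in JAG1+ LMPs. *Lhx2*, a mediator of ridge signals, had log2 FC -1.92 ± 0.20, and *Prdm1* -2.55 ± 0.23. *Hand2*, the upstream regulator of *Shh*, was at 184, 184 and 205 CPM in OCPs and 353, 401 and 430.0 CPM in JAG1+ LMPs and did not reach the fold limit (-1.05 ± 0.13). *Tbx2* (-1.01 ± 0.16) and *Lhx9* (-0.62 ± 0.13) also lay below it, and *Tbx3* and *Lmx1b* had log2 FC 0.38 ± 0.21 and 0.02 ± 0.15. The 3 called higher in OCPs were *Prdm16*, *Bcl11b* and *Hmx1*, of which *Prdm16* (1.22 ± 0.12) and *Bcl11b* (1.297 ± 0.21) fell just below the fold limit without single libraries (1.16 and 1.16 at the least).

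*T* was counted among the distal factors and is also a tail bud gene. Its levels in JAG1+ LMPs were 5.35, 10.3 and 23.8 CPM, highest in replicate 3, which held the tail bud markers *Cdx4*, *Msgn1* and *Wnt3a* at 3.05, 2.97 and 2.50 CPM. These 3 genes were at most 0.214 CPM in JAG1+ replicates 1 and 2, in which *T* stood at 5.35 and 10.3 CPM. All OCP values of *T* were lower (0.0811, 0.475 and 0.289 CPM). Over all 9 tail bud markers, JAG1+ replicates 1 and 2 summed to 11.0 and 16.4 CPM, against 1.66 to 4.23 CPM in OCPs. The part of tail bud cells in the level of *T* was not tested. Without JAG1+ replicate 3 the log2 FC of *T* was -4.82. *Cdx2* was at 1.24, 1.68 and 3.81 CPM in JAG1+ LMPs and had no count in OCPs, which makes it at least 55.7-fold higher against 3 counts over the 3 OCP libraries. Of the anterior factors, 4 of 17 were called higher in OCPs and 5 in JAG1+ LMPs. *Alx4* (1.59 ± 0.25) and *Gsc* (3.21 ± 0.22) were higher in OCPs. *Zic2* (-2.99 ± 0.16) and *Zic5* (-3.01 ± 0.19) were higher in JAG1+ LMPs, with *Zic2* at 35.9, 40.04 and 37.2 CPM in OCPs against 289, 296 and 314 CPM. *Pax9*, an anterior gene, was at 0.284, 0.190 and 0.434 CPM in OCPs against 0.514, 0.335 and 0.674 CPM in JAG1+ LMPs and was not called.

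Of 26 tested genes of the hedgehog pathway, 5 were called higher in OCPs and 3 in JAG1+ LMPs (median log2 FC 0.06), and of 7 receptors or coreceptors among them, 2 in each direction. *Ptch1*, the SHH receptor and a target of the pathway, stood at 84.3, 82.0 and 103 CPM in OCPs and 204, 209 and 245 CPM in JAG1+ LMPs. *Gli1*, a direct target, was at 50.8, 88.7 and 60.9 CPM in OCPs and 108, 168 and 122 CPM in JAG1+ LMPs, without overlap, and with a log2 FC of -0.99 ± 0.20 stayed below the fold limit. Without OCP replicate 2, its highest OCP library, it passed the limit at -1.25. SHH response genes were detected in both populations. The ligand-binding coreceptors *Cdon* (377, 310.3 and 364 CPM in OCPs and 60.8, 58.1 and 39.3 CPM in JAG1+ LMPs) and *Boc* (154, 216 and 185 CPM in OCPs against 48.8, 61.4 and 53.3 CPM) were called higher in OCPs. The third coreceptor *Gas1* differed less (0.64 ± 0.12) and was not called. *Hhip*, which binds and sequesters SHH and is often a target of the pathway, was at 13.8, 19.9 and 18.3 CPM in OCPs and 1.58, 3.60 and 1.74 CPM in JAG1+ LMPs. *Scube3*, of a family that helps to release the ligand, was 5.36-fold higher in OCPs. *Smo* (-0.24 ± 0.09), *Gli3* (0.09 ± 0.08) and *Sufu* (-0.03 ± 0.11) differed by less than 1.3-fold, and *Gli2* had log2 FC 1.00 ± 0.10. None of the 11 tested intracellular effectors was called.

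FGF receptors were higher in OCPs and most FGF feedback genes higher in JAG1+ LMPs. Over the 29 tested genes of the pathway, 8 were called in each direction (median log2 FC -0.32). Of 5 tested receptor genes, *Fgfr2* (93.5, 119 and 110.1 CPM in OCPs and 24.4, 18.3 and 11.9 CPM in JAG1+ LMPs), *Fgfr3* (2.28 ± 0.23) and *Fgfr4* (2.74 ± 0.28) were called higher in OCPs, and *Fgfr1* (0.54 ± 0.09) and *Fgfrl1* (1.08 ± 0.11) were higher below the fold limit. Of 17 feedback or target genes, 6 were called higher in JAG1+ LMPs: *Spry1*, *Spry4*, *Dusp6*, *Etv4*, *Etv5* and *Il17rd*. *Spry4*, an inhibitor of the pathway that it reports, stood at 15.6, 14.6 and 14.8 CPM in OCPs and 164, 145 and 165 CPM in JAG1+ LMPs (adjusted p 1.89e-08, edgeR). *Dusp6*, the ERK phosphatase, stood at 212, 229 and 206 CPM in OCPs against 627, 483 and 565 CPM in JAG1+ LMPs. *Etv4*, an ETS factor that restricts *Shh* to the posterior margin, stood at 24.6, 19.9 and 20.7 CPM in OCPs against 143, 146 and 157 CPM in JAG1+ LMPs. *Spry2* (-0.68 ± 0.14) and *Dusp4* (-0.90 ± 0.15) were higher in JAG1+ LMPs below the limit. At any fold 10 of the 17 were higher there and 5 in OCPs, beside 21.9% and 25.8% of all genes. Called higher in OCPs were *Fos* and *Egr1*, which are also immediate-early genes, and *Flrt2*. Of the ligands, *Fgf10*, the mesenchymal signal to the ridge, was at 44.7, 37.0 and 40.2 CPM in OCPs and 92.0, 92.6 and 103 CPM in JAG1+ LMPs (-1.24 ± 0.14, -1.183 without OCP replicate 2), and *Fgf9* was higher in OCPs (4.99, 7.66 and 8.28 CPM in OCPs against 0.599, 0.712 and 0.674 CPM). The ridge ligand *Fgf8* stood at no more than 0.872 CPM in any of the 6 libraries, in sorts from which EpCam+ ectoderm was removed.

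Of the Wnt genes, 15 of 51 were called higher in OCPs and 10 higher in JAG1+ LMPs (median log2 FC 0.29). *Wnt5a*, the noncanonical ligand of distal outgrowth, stood at 132, 112 and 139 CPM in OCPs and 573, 550.4 and 659.8 CPM in JAG1+ LMPs. *Wnt11* stood at 25.2, 24.6 and 26.4 CPM in OCPs against 1.93, 1.89 and 2.10 CPM in JAG1+ LMPs, with replicates that hardly differed. *Wnt9a* (2.80 ± 0.26), *Wnt16* (2.87 ± 0.51), both known from joints, and the signal enhancers *Rspo1* (3.28 ± 0.74, 3.93 without JAG1+ replicate 1) and *Rspo2* (2.66 ± 0.27) were higher in OCPs. The receptor *Ror1* stood at 77.8, 88.8 and 92.6 CPM in OCPs and 17.7, 7.67 and 5.55 CPM in JAG1+ LMPs, and its log2 FC went from 3.07 to 3.71 without JAG1+ replicate 1. *Fzd8* was higher in OCPs (2.53 ± 0.22) and *Fzd10* in JAG1+ LMPs (-2.53 ± 0.22). Of 10 feedback or target genes, *Tcf7*, *Lef1*, *Sp5* and *Tnfrsf19* were called higher in JAG1+ LMPs and *Tcf7l2* higher in OCPs. *Tcf7* stood at 28.7, 18.5 and 22.6 CPM in OCPs and 92.0, 92.8 and 96.3 CPM in JAG1+ LMPs. *Axin2*, the general readout of β-catenin, was at 58.8, 74.8 and 71.1 CPM in OCPs against 93.4, 145 and 134 CPM and below the fold limit (-0.87 ± 0.21), as was *Nkd1* (-1.19 ± 0.10), which passed it without OCP replicate 3 (-1.26), JAG1+ replicate 1 (-1.24) or JAG1+ replicate 3 (-1.203). *Sp5* reached 3.33 CPM in JAG1+ replicate 3 and 0.771 and 0.545 CPM in the others, and its log2 FC went from -2.81 to -1.57 without replicate 3. *Wnt2* reached 15.2 CPM in JAG1+ replicate 1 and 1.68 and 2.34 CPM in the others, and its log2 FC went from -4.76 to -3.09 without replicate 1. Antagonists were divided, with *Sfrp1*, *Sfrp2* and *Wif1* higher in OCPs and *Dkk1* (1.09, 0.523 and 0.796 CPM in OCPs against 8.13, 5.24 and 5.51 CPM), *Frzb* and *Notum* higher in JAG1+ LMPs. *Sfrp1*, high in JAG1+ replicate 1, went from 1.80 to 2.72 without it, *Wif1* fell to 1.10 without OCP replicate 3 and *Lef1* to -1.196 without OCP replicate 2.

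Of 53 tested genes of the BMP pathway, 10 were called higher in OCPs and 8 in JAG1+ LMPs (median log2 FC 0.04). Of 9 ligands, 2 were called higher in OCPs and 3 in JAG1+ LMPs, and of 14 antagonists or modulators, 6 in OCPs and 1, *Grem1*, in JAG1+ LMPs. *Bmp2* stood at 1.87, 3.899 and 2.35 CPM in OCPs and 13.1, 21.2 and 24.9 CPM in JAG1+ LMPs. *Bmp4* stood at 38.5, 32.1 and 34.4 CPM in OCPs against 94.5, 101 and 102 CPM in JAG1+ LMPs. *Bmp5* was higher in JAG1+ LMPs too (-2.24 ± 0.17), with antisense overlap over 49% of its exons, while *Gdf5* (1.78 ± 0.25) and *Bmp6* (1.54 ± 0.49) were higher in OCPs at low levels. *Grem1*, the antagonist that keeps BMP activity low in the distal mesenchyme, stood at 24.9, 11.8 and 15.9 CPM in OCPs and 93.3, 90.3 and 82.2 CPM in JAG1+ LMPs. The other called antagonists and modulators were higher in OCPs, among them *Chrdl1* (41.5, 57.0 and 50.9 CPM in OCPs against 9.85, 9.55 and 8.40 CPM), *Bmper*, *Fst* (3.78 ± 0.47, 4.68 without JAG1+ replicate 3), *Sostdc1* and *Nbl1*. *Nbl1* fell to 1.13 without OCP replicate 3. Of 8 receptor genes, *Bmpr1b*, the type I receptor needed for cartilage condensation, was at 30.2, 37.5 and 36.1 CPM in OCPs and 4.71, 3.98 and 5.11 CPM in JAG1+ LMPs, and the coreceptor *Rgma* had log2 FC 2.15 ± 0.12. *Bmpr1a* (0.26 ± 0.08) and *Bmpr2* (0.16 ± 0.14) differed by less than 1.3-fold. Of the 18 target genes, *Msx1*, *Dlx5*, *Gata3* and *Gata6* were called higher in JAG1+ LMPs and none higher in OCPs. The general targets *Id1* (-0.18 ± 0.12), *Id3* (0.02 ± 0.09) and *Smad6* (0.14 ± 0.10) were not called, and *Id2* had log2 FC 0.92 ± 0.12. *Gata6* was at 34.9, 10.1 and 10.7 CPM in JAG1+ LMPs, highest in replicate 1, which held the flank and heart markers, and its log2 FC went from -2.37 to -1.54 without it. *Gata3* shared that order (4.67, 1.09 and 1.31 CPM) and went from -3.39 to -2.43.

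Beside *Jag1*, on which the cells were sorted, the Notch list had 8 called genes, 2 higher in OCPs and 6 higher in JAG1+ LMPs (21 tested, median log2 FC 0.21), and 5 of the 8 were targets. Without JAG1+ replicate 3 the count higher in OCPs was 4. Of 7 tested targets, 4 were called higher in JAG1+ LMPs and 1, *Heyl*, in OCPs. *Hey1*, a transcriptional repressor downstream of Notch receptors, stood at 16.4, 13.3 and 12.8 CPM in OCPs and 184, 161 and 202 CPM in JAG1+ LMPs (log2 FC -3.69 ± 0.17, adjusted p 4.20e-09, edgeR). *Nrarp*, a feedback inhibitor, stood at 2.84, 2.90 and 4.99 CPM in OCPs against 30.9, 32.7 and 39.3 CPM in JAG1+ LMPs, with antisense overlap over 79% of its exons. *Hes7* (-1.72 ± 0.31) and *Hey2* (-1.99 ± 0.35) were low in both populations and higher in JAG1+ LMPs. *Hes1*, the most general target, was at 42.7, 60.1 and 46.2 CPM in OCPs and 40.3, 39.1 and 49.1 CPM in JAG1+ LMPs and overlapped. The glycosyltransferase *Lfng*, which modifies Notch receptors, was at 0.649, 0.999 and 0.651 CPM in OCPs against 3.81, 3.27 and 5.07 CPM. None of the 4 receptors was called: *Notch1* (1.14 ± 0.21, past the limit at 1.27 without OCP replicate 1 and 1.32 without JAG1+ replicate 3) and *Notch2* (0.82 ± 0.12) were higher in OCPs, and *Notch3* (0.21 ± 0.10) and *Notch4* (0.28 ± 0.15) did not pass. *Dll1* was called, but stood at 0.300 and 0.293 CPM in JAG1+ replicates 1 and 2, within the range of a few counts, and at 8.05 CPM in replicate 3. Without replicate 3 its log2 FC was -0.45 and its adjusted p 0.713 (edgeR). The imprinted *Dlk1*, a noncanonical ligand, was higher in OCPs (303, 222 and 282 CPM against 151, 63.2 and 62.7 CPM).

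To show the DNA next to these targets, promoters from RefSeq (GRCm38.p6, 250 bases before to 50 after each annotated start) were searched on both strands for GTGGGAA, the core of the site bound by RBPJ, the DNA-binding partner of Notch. Of the 5 Notch targets with a promoter in the table, *Hey2*, *Hes7* and the untested *Hes5* hold the motif. Among receptors and modifiers, *Lfng* holds it, and *Notch1*, *Notch2*, *Notch3*, *Notch4*, *Rfng* and *Pofut1* do not. Over 32851 promoters of 27025 genes, 6.38% hold the motif. The stretches around the motif in the 3 tested genes follow in the direction of transcription, with the motif or its reverse complement in capitals.
*Hey2*, chr10:30842944-30843030, minus strand: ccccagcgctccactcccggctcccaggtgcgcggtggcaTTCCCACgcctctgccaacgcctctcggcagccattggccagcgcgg
*Hes7*, chr11:69120233-69120319, plus strand: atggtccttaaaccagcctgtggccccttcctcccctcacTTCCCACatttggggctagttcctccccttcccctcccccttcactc
*Lfng*, chr5:140607192-140607278, plus strand: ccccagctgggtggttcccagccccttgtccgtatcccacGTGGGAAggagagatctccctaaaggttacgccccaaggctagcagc
The motif shown begins 207, 180 and 109 bases before the start. The window of *Hey2* holds 2 matches, of which 1 is shown. *Nrarp* has no match in its window, and *Hey1* is not in the promoter table. A match is a description of the sequence, and binding was not measured.

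Of 17 tested retinoic acid genes, 6 were called higher in OCPs and 3 in JAG1+ LMPs (median log2 FC 0.74), and 1 in JAG1+ LMPs without JAG1+ replicate 3. *Cyp26b1*, the enzyme that degrades retinoic acid in the distal limb, stood at 216, 174 and 223 CPM in OCPs and 851, 789 and 862 CPM in JAG1+ LMPs (adjusted p 1.93e-08, edgeR). The synthetic enzyme *Aldh1a2* stood at 4.58, 8.51 and 9.15 CPM in OCPs against 3.04, 0.838 and 0.634 CPM in JAG1+ LMPs, highest of the JAG1+ libraries in replicate 1, without which its log2 FC went from 2.31 to 3.33. *Stra6*, which takes up retinol, was at 104, 84.3 and 115 CPM in OCPs against 23.2, 24.2 and 19.6 CPM. The receptor *Rarb*, itself a target of retinoic acid, stood at 35.9, 44.7 and 40.04 CPM in OCPs and 7.62, 5.57 and 3.29 CPM in JAG1+ LMPs. The carrier *Crabp2* (1.32 ± 0.18, 1.07 without OCP replicate 1) and the retinal reductase *Dhrs3* (1.53 ± 0.16) were higher in OCPs, the retinol carrier *Rbp4* was called higher in JAG1+ LMPs (-1.21 ± 0.31, -0.94 at the least without single libraries), and *Rara* (0.77 ± 0.09) and *Rarg* (0.61 ± 0.11) lay below the fold limit. *Rarb* overlaps antisense transcripts over 60% of its exons.

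The *Rarb* promoter holds a direct repeat of the hexamers bound by retinoic acid receptors with 5 bases between them. The hexamers searched were AGTTCA and GGTTCA and, with a G in the middle, AGGTCA and GGGTCA, in the same direction and on both strands. Such a repeat was found in 0.0974% of the 32851 promoters and in 2 of the 15 retinoic acid genes with a promoter in the table, *Rarb* and *Cyp26a1*. *Cyp26a1* was at 0, 0.333 and 0.0723 CPM in OCPs against 0.599, 0.126 and 1.78 CPM in JAG1+ LMPs, with overlap, and its call was lost without JAG1+ replicate 3 (adjusted p 0.328, edgeR). The stretch of *Rarb* has the hexamers in capitals.
*Rarb*, chr14:16575477-16575569, minus strand: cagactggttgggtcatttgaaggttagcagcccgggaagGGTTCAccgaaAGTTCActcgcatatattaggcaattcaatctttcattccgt

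**Figure D4:**
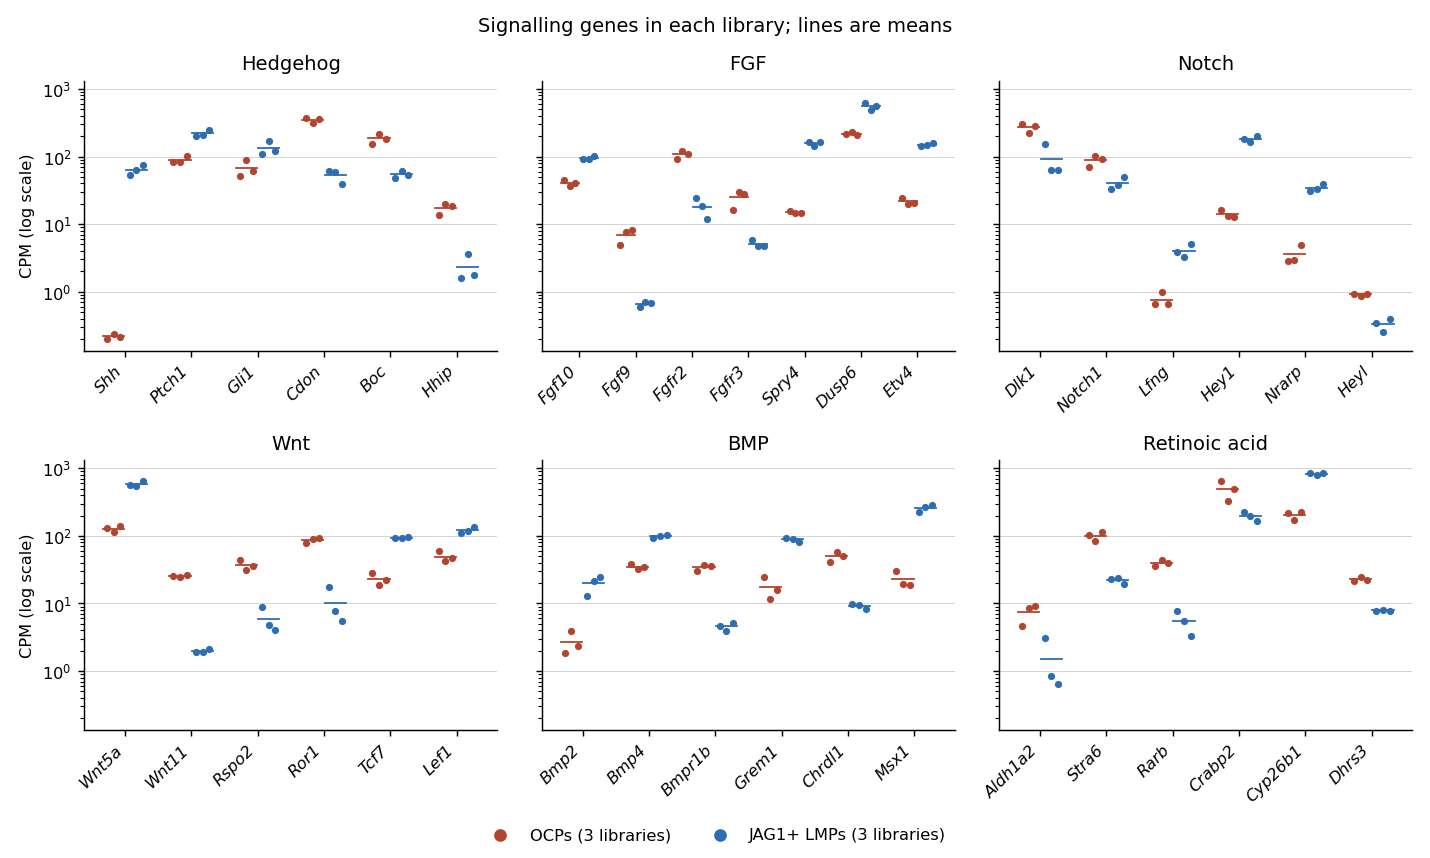
Points give the CPM (log scale) of genes of 6 pathways in each of 3 OCP libraries (red) and 3 JAG1+ libraries (blue), and lines the mean of each population. *Shh*, *Hey1*, *Spry4*, *Wnt5a*, *Msx1* and *Cyp26b1* are higher in every JAG1+ library, and *Cdon*, *Fgfr2*, *Wnt11*, *Bmpr1b* and *Rarb* in every OCP library.

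Of 21 chondrogenic regulators, 6 were called higher in OCPs and 2 in JAG1+ LMPs (median log2 FC 0.58). *Sox5*, a partner of SOX9 in cartilage, stood at 84.9, 106 and 100 CPM in OCPs and 36.5, 35.2 and 40.1 CPM in JAG1+ LMPs. Its relative *Sox6* (0.96 ± 0.21) was higher below the fold limit. *Foxc1*, a forkhead factor of cartilage and bone precursors, stood at 52.9, 111 and 81.1 CPM in OCPs against 3.25, 3.69 and 6.54 CPM in JAG1+ LMPs, the largest difference of the list among genes above a few counts. *Runx2*, the master regulator of osteoblasts, stood at 24.99, 51.5 and 53.4 CPM in OCPs against 8.48, 13.8 and 13.0 CPM in JAG1+ LMPs, while its relative *Runx3* was higher in JAG1+ LMPs (-1.72 ± 0.32). *Sox8* (1.70 ± 0.18) and *Shox2* were higher in OCPs as well. *Nkx3-2* had 10 counts over the OCP libraries and none in JAG1+ LMPs, at least 3.29-fold higher against 3 counts over the 3 libraries. *Sp7*, a later osteoblast factor, was at 2.47, 1.71 and 2.17 CPM in OCPs against 3.38, 2.52 and 2.30 CPM and was not called.

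Collagens of cartilage and connective tissue were mostly higher in OCPs, and basement membrane genes more often higher in JAG1+ LMPs. Of 78 tested genes, 22 were called higher in OCPs and 4 in JAG1+ LMPs (median log2 FC 0.43). Of 19 collagens outside the basement membrane, 10 were called higher in OCPs and 1, *Col13a1*, in JAG1+ LMPs (-4.32 ± 0.31). *Col2a1*, the main collagen of cartilage and a target of SOX9, stood at 695, 1228 and 1045 CPM in OCPs and 23.2, 31.0 and 23.7 CPM in JAG1+ LMPs (adjusted p 8.24e-09, edgeR). *Col9a2* (5.28 ± 0.39), *Col9a3* (4.19 ± 0.37) and *Col9a1* (1.78 ± 0.17), the chains of the cartilage collagen IX, were all called. The fibril collagens *Col1a1* (1.54 ± 0.20), *Col1a2* (1.47 ± 0.16) and *Col3a1* (1.68 ± 0.20) of connective tissue were higher in OCPs by less. Among 10 basement membrane chains, the laminin chain *Lama1* (33.4, 29.5 and 26.9 CPM in OCPs and 109, 134 and 160.0 CPM in JAG1+ LMPs) and the linker *Nid1* (160.1, 121 and 146 CPM in OCPs against 411, 410.3 and 386 CPM) were called higher in JAG1+ LMPs and *Col4a5* higher in OCPs. *Col4a1*, *Col4a2* and *Lamb1*, with log2 FC -1.09 ± 0.08, -1.15 ± 0.08 and -1.07 ± 0.08, lay just below the limit in the direction of JAG1+ LMPs. At any fold 6 of the 10 were higher there and 3 in OCPs (median log2 FC -0.88), beside 21.9% and 25.8% of all genes. *Vcan*, the large proteoglycan of precartilage matrix, was at 787, 1970 and 1331 CPM in OCPs and 682, 687 and 672 CPM in JAG1+ LMPs, above in every OCP library but below the fold limit (1.00 ± 0.24, and 1.28 without OCP replicate 1, its lowest OCP library). The small proteoglycan *Prelp* had 303 counts over the OCP libraries and 1 over the JAG1+ libraries, a ratio of 299 (95% interval from counting error 53.3 to 11900), and *Matn4* stood at 0.852, 4.71 and 5.97 CPM in OCPs against 0.385, 0.126 and 0.0396 CPM (4.39, 5.48 without JAG1+ replicate 1). *Thbs1* (2.10 ± 0.28), *Fbn1* (1.44 ± 0.19) and the crosslinking enzymes *Lox* (1.83 ± 0.40) and *Loxl1* (2.17 ± 0.20) were higher in OCPs. *Tnc*, higher in JAG1+ LMPs, was at 84.3, 21.7 and 10.8 CPM there and highest in replicate 1, without which its log2 FC went from -2.90 to -1.64.

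Of 28 adhesion genes, 5 were called higher in OCPs and 2 in JAG1+ LMPs (median log2 FC -0.09), and 8 in OCPs without JAG1+ replicate 1. The protocadherins *Pcdh8* (3.03 ± 0.62, 5.12 without JAG1+ replicate 3), *Pcdh9* (3.58 ± 0.42) and *Pcdh17* (2.60 ± 0.20), the cadherin *Cdh6* (1.35 ± 0.15, 1.14 without JAG1+ replicate 3) and the receptor *Cntfr* (1.83 ± 0.26) were the former, and the integrin *Itga1* and hyaluronan synthase *Has2* (23.1, 23.1 and 28.2 CPM in OCPs and 81.5, 71.6 and 91.5 CPM in JAG1+ LMPs) the latter. The condensation adhesion molecules *Ncam1* (-0.33 ± 0.14) and *Cdh2* (0.29 ± 0.07) differed by less than 1.3-fold, and *Cdh11* (-0.78 ± 0.09) was lower in OCPs.

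Of 25 tested genes in the list of tendon, joint and connective tissue, 13 were called higher in OCPs and 2 in JAG1+ LMPs (median log2 FC 1.27). *Scx*, the factor of tendon progenitors, stood at 99.4, 117 and 118 CPM in OCPs and 16.3, 18.3 and 14.1 CPM in JAG1+ LMPs. *Ebf2* (3.56 ± 0.28), *Ebf3* (2.54 ± 0.23), *Osr1* and *Osr2*, factors of connective tissue precursors, and *Erg* (1.48 ± 0.21), a factor of joints and articular cartilage, were called with it. The list also holds *Egr1* and *Egr2*, which are immediate-early genes. *Nfia* (-1.297 ± 0.27, -1.03 without OCP replicate 1) and *Etv2* (-2.83 ± 0.53) went the other way. *Etv2* is a member of the list but not an established gene of these tissues. *Tbx5*, the forelimb factor, was at 215, 240.1 and 263 CPM in OCPs against 181, 193 and 184 CPM (0.37 ± 0.15).

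Among 35 tested growth factor genes, 10 were called, all higher in OCPs (median log2 FC 0.66). *Igf1* stood at 53.1, 102 and 106 CPM in OCPs and 12.2, 3.52 and 2.73 CPM in JAG1+ LMPs, and its log2 FC went from 3.83 to 4.80 without JAG1+ replicate 1. *Igf2*, an imprinted growth factor of the fetus, stood at 7347, 4081 and 6164 CPM in OCPs against 3018, 2249 and 2198 CPM in JAG1+ LMPs. Its log2 FC of 1.24 ± 0.17 was near the limit and was 1.04 without OCP replicate 1. The binding proteins *Igfbp2* (1.54 ± 0.14) and *Igfbp3* (3.37 ± 0.31) were higher in OCPs, while the receptors *Igf1r* (-0.12 ± 0.10) and *Igf2r* (0.10 ± 0.11) were not called. *Tgfb2* was 7.16-fold higher in OCPs (90.4, 121 and 132 CPM in OCPs against 20.7, 15.1 and 12.1 CPM), and the YAP targets *Ccn1* (2.30 ± 0.37) and *Ccn2* (2.06 ± 0.28) were called there too. *Igfbp5* was called (1.54 ± 0.45) but overlapped, with 132, 212 and 218 CPM in OCPs against 134, 29.2 and 30.2 CPM. It was highest of the JAG1+ libraries in replicate 1, without which its log2 FC was 2.66, and its call was lost without JAG1+ replicate 2 (1.175) or 3 (1.19).

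Of 46 guidance molecules, 15 were called higher in OCPs and 6 in JAG1+ LMPs (median log2 FC 0.47). Eph receptors split, with *Epha7* (101, 108 and 113 CPM in OCPs and 20.7, 19.5 and 19.3 CPM in JAG1+ LMPs) and *Ephb1* higher in OCPs and *Epha1*, *Epha2* (3.94, 5.80 and 4.59 CPM in OCPs against 73.0, 89.9 and 90.1 CPM) and *Epha4* (137, 181 and 189 CPM in OCPs against 532, 616 and 702 CPM) higher in JAG1+ LMPs. The ephrins *Efna5*, *Efnb2* and *Efnb3* were higher in OCPs, with log2 FC 1.201 to 1.63, and *Efnb3* was below the limit without single libraries (1.10 at the least). *Ntn1*, the secreted netrin, stood at 162, 168 and 222 CPM in OCPs and 6.38, 6.71 and 5.95 CPM in JAG1+ LMPs. Its receptors diverged, with *Dcc* (2.64 ± 0.38) and *Unc5c* (1.44 ± 0.28) higher in OCPs and *Unc5b* (-1.91 ± 0.12) higher in JAG1+ LMPs. *Robo2* (2.71 ± 0.20) and *Sema6a* (2.92 ± 0.17) were higher in OCPs, and *Slit3* (-1.91 ± 0.12) and *Nrp2* (-1.96 ± 0.13) in JAG1+ LMPs. The signals to migrating muscle precursors were on the OCP side: *Cxcl12* stood at 239, 231 and 255 CPM in OCPs and 11.7, 9.43 and 4.20 CPM in JAG1+ LMPs. *Hgf* stood at 54.3, 49.3 and 42.2 CPM in OCPs against 9.42, 7.71 and 4.96 CPM in JAG1+ LMPs. The decoy receptor *Ackr3* for CXCL12 was higher in OCPs too (3.84 ± 0.30).

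No gene of the 55 for ribosome biogenesis reached the fold limit, but 51 passed the p limit, all higher in JAG1+ LMPs, where the share over all genes was 21.9%, and all 55 had a negative log2 FC (median -0.68). The RNA helicase *Ddx21* stood at 198, 194 and 171 CPM in OCPs and 377, 382 and 378 CPM in JAG1+ LMPs. The nucleolar protein gene *Ncl* stood at 1270, 1042 and 1033 CPM in OCPs against 1940, 2026 and 1941 CPM in JAG1+ LMPs. *Mycn*, a driver of growth in early limb mesenchyme, was at 86.6, 60.6 and 66.1 CPM in OCPs and 229, 213 and 244 CPM in JAG1+ LMPs (-1.69 ± 0.16), while *Myc* was higher in OCPs (1.28 ± 0.25, 1.16 without OCP replicate 2). Of 24 replication genes, 20 passed the p limit, all higher in JAG1+ LMPs (median log2 FC -0.41), with *Mcm2* at 421, 326 and 361 CPM in OCPs against 538, 561 and 532 CPM. Of 25 mitotic genes, 8 passed it in that direction and 1 in the other (median -0.14), and *Mki67* overlapped (621, 1041 and 630.2 CPM in OCPs against 738, 747 and 761 CPM). Among 9 tested Cdk inhibitors, 3 were called, all higher in OCPs. *Cdkn1c*, the inhibitor of cells that leave the cycle, stood at 1030, 1006 and 1031 CPM in OCPs and 293, 274 and 279 CPM in JAG1+ LMPs (adjusted p 1.30e-08, edgeR), with antisense overlap over 30% of its exons. Among 20 glycolytic genes, 16 passed the p limit higher in JAG1+ LMPs and 2 in OCPs (median log2 FC -0.83). *Slc2a3*, *Hk2*, *Ldha* (588, 286 and 419.5 CPM in OCPs and 1229, 913 and 936 CPM in JAG1+ LMPs) and *Slc16a3* were called, and OCP replicate 2 was the lowest library for *Ldha* and *Pkm* (-0.90 ± 0.16). Without it the log2 FC of *Ldha* was -1.03, below the limit. Of hypoxia targets, 2 of 14 were called higher in OCPs (*Ddit4*, 2.49 ± 0.21, and the weakly expressed *Adm*, whose adjusted p by edgeR was 0.125 without JAG1+ replicate 3), with a median of 0.24. The plot of growth, cell cycle and glycolysis genes shows these lists beside all genes.

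**Figure D5:**
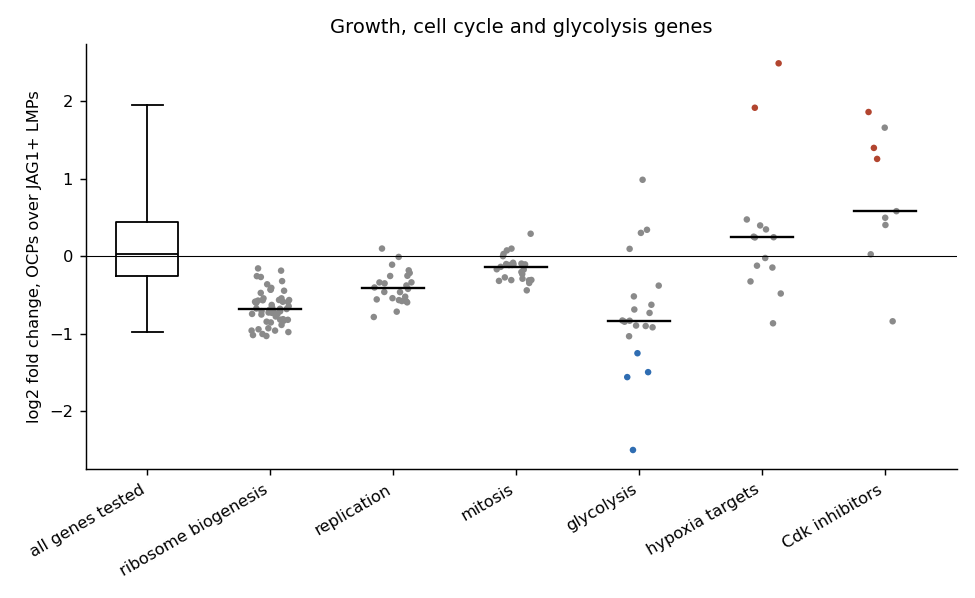
Points give the log2 FC (OCPs over JAG1+ LMPs) of each tested gene of a list, black lines the medians, and the box the quartiles, with whiskers to the percentiles 5 and 95, of all 15125 genes; red and blue mark called genes. All 55 ribosome biogenesis genes lie below 0 (median -0.68), mitotic genes lie around -0.14, and Cdk inhibitors have a median of 0.58.

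Of 25 immediate-early and stress genes, 6 were called higher in OCPs and none in JAG1+ LMPs, and 10 in OCPs without OCP replicate 1. *Fos* stood at 60.4, 200.4 and 145 CPM in OCPs and 33.2, 56.6 and 26.2 CPM in JAG1+ LMPs. *Egr1* stood at 43.0, 190.2 and 141 CPM in OCPs against 16.2, 24.8 and 17.4 CPM in JAG1+ LMPs. The order of the OCP libraries was the same in both genes, and *Ccn1* (197, 538 and 377 CPM) shared it. The part of dissociation or sorting in these values was not tested. Heat shock genes *Hspa1a* and *Hspa1b* were highest in OCP replicate 2 (24.9 and 33.0 CPM) and were not called.

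Markers of other cells were low. Of 10 leukocyte genes, 7 or 8 had no more than 3 counts in each library, and *Itgam*, *Tyrobp* and *Aif1* had no count in any of the 6 libraries. Endothelial markers summed to 11.8 to 15.2 CPM in OCPs and 14.7 to 17.4 CPM in JAG1+ LMPs over 12 genes, of which 1 was called higher in OCPs and 2 in JAG1+ LMPs. Red blood cell markers summed to 13.5 to 72.3 and 3.13 to 52.5 CPM over 10 genes, with none called. Ectodermal markers summed to 13.5 to 15.4 and 6.79 to 12.2 CPM over 12 genes, with 3 called higher in OCPs. Myoblast markers summed to 9.87 to 11.8 and 4.02 to 6.42 CPM over 10 genes, with 4 called higher in OCPs, among them *Met* (1.99 ± 0.16). Neural crest and neuronal markers summed to 18.0 to 29.8 and 14.1 to 15.9 CPM over 10 genes, with 3 called higher in OCPs. Of these, *Sox10*, a SOX9 relative of neural crest and glia, had 215 counts in OCPs and 3 in JAG1+ LMPs, a ratio of 70.8 (95% interval from counting error 23.9 to 346), and *Erbb3* stood at 2.27, 4.28 and 5.71 CPM in OCPs against 0.171, 0.209 and 0.0396 CPM. These values stand beside the neuronal genes among the largest differences (*Gria2*, *Shisa7*, *Calb2*), and the part of crest cells in them was not tested. Hindlimb markers summed to 44.3 to 86.2 and 19.4 to 49.4 CPM over 6 genes, highest in replicate 1 of each population.

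The third E10.5 population without SCA-1, S9-Pαhi LMPs, was set beside the comparison as a description. Its mean lay between those of OCPs and JAG1+ LMPs for 1111 of the 1366 genes called higher in OCPs (81.3%). Among the 524 called higher in JAG1+ LMPs it was 376 (71.8%), and over all genes tested 53.0%. Called genes were picked for a wide gap between OCPs and JAG1+ LMPs, which leaves more room between the means. The shares therefore cannot be set against that over all genes, and nothing is drawn from them. In S9-Pαhi LMPs, *Shh* stood at 16.1 ± 2.71 CPM (mean ± SD, n = 3), *Hoxd13* at 71.6 ± 8.67 CPM, *Meis1* at 79.3 ± 11.6 CPM and *Col2a1* at 89.8 ± 26.9 CPM, all between the other two. *Hey1* at 19.2 ± 5.12 CPM and *Sall1* at 87.5 ± 13.4 CPM lay nearer to OCPs. *Msx1* (284 ± 14.3 CPM), *Tbx2* (254 ± 60.3 CPM) and *Dkk1* (25.1 ± 1.51 CPM) were at or above the level of JAG1+ LMPs, and *Cyp26b1* (241 ± 24.0 CPM) near that of OCPs.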

How the data were processed

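Poly(A) RNA of sorted cells was sequenced as single-end reads. Per the labels and the study's methods, the authors aligned the reads with STAR to mm10 (versions not given in the sources used here) and counted those on exons of RefSeq mRNAs with qCount of QuasR, keeping 1 position for a read that mapped to several. Reads of close paralogues can therefore be misplaced. The deposited values are these raw read counts per gene. Use of strand is not stated, so reads of a gene and its antisense partner cannot be told apart. Of the 24454 genes in the table, 24374 were matched to a symbol, and the 80 others held 0.358% of the counts. Totals of the 6 libraries ran from 20316583 to 27404749 counts, so 3 counts are 0.109 to 0.143 CPM, a floor for counting error only.

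Counts were filtered with filterByExpr, scaled by TMM and fitted with edgeR 4.0.16 (quasi-likelihood F test, R 4.3.3, limma 3.58.1), with 1 mean for each of the 5 populations over all 14 libraries, so that the spread is shared (biological coefficient of variation 13.4%). The contrast was OCPs minus JAG1+ LMPs, Benjamini-Hochberg adjusted over 15125 genes, with limits of 0.1 on the adjusted p and 1.2 on the size of the log2 FC. The code was tested on simulated data. CPM use TMM-scaled library sizes, and fold changes are fitted log2 FC ± SE. The SE was derived from the test, as the size of the log2 FC divided by the square root of the F statistic. Named genes were members of 23 lists, the 15 called genes a direction with the largest fold at 5 CPM or more and without overlap, and the 10 outside the lists with the largest difference in level. Single further genes were named for counts of a list or for their role in the limb. Members, lists and tests were chosen with earlier results of these data known. Alternatives were other normalizations (DESeq2 1.42.0 size factors, library totals), tests, filters and limits, fewer libraries, a replicate block and each library left out. Figures were drawn with matplotlib 3.10.9. A few genes that the lists or rules name are not reported here.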

Additional observations from a re-analysis of the deposited data

How the results depend on the processing

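Against 1366 genes called higher in OCPs and 524 higher in JAG1+ LMPs, the counts stayed within 1.5 times under other normalizations, filters and libraries: 1332 and 532 with DESeq2's Wald test, which shared 1845 of the 1890 calls, 1435 and 488 with library totals, 1094 and 412 with a filter at 1 CPM, and 1080 and 449 with the 6 libraries alone. A test against the fold limit itself (glmTreat) called 651 and 264, and dropping the fold limit gave 3901 and 3310. Over the lists these 2 settings called 152 and 515 genes against 231. Leaving out each library in turn gave 1230 to 1492 genes higher in OCPs, 495 to 590 higher in JAG1+ LMPs and 221 to 240 over the lists. The share of called genes with S9-Pαhi LMPs in between was 85.85% and 79.27% among genes of at least 5 CPM, against 81.33% and 71.76%. With replicate numbers as a block, 1346 and 530 genes were called, 1854 of them shared with the calls without it, and 1072 and 458 in the 6 libraries alone. The deviations of libraries with the same number correlated at 0.587, 0.529 and -0.0438, and those with different numbers at -0.578 to 0.225. Replicates 1 and 2 thus stood above the range of different numbers and replicate 3 within it. Whether same-numbered libraries shared a pool is not stated, and the numbers were not taken as pairing in the main fit. Genes with 3 counts or fewer in the lower population have a direction and no measured fold.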
